A study of Mus musculus with 4 samples.

Results

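Endoglin, 5 bone morphogenetic protein (BMP) and transforming growth factor beta (TGF-beta) receptors or coreceptors besides it, and 4 SMAD signal transducers make up the group of 10 genes described here. They were taken by symbol (Eng, Tgfbr3, Bmpr1a, Tgfbr1, Bmpr2, Tgfbr2, Smad2, Smad3, Smad4 and Smad7) from the 22473 gene symbols used, and all 10 were found once in each file. Eng and Bmpr1a were included because their values were already known to be higher in both KO libraries, so those values are given as a description. The series sequenced RNA from spleen T cells of mice on a C57BL/6 background, with 1 library for each of 4 groups. WT iNKT and KO iNKT are invariant natural killer T cells, sorted with CD1d tetramers carrying the lipid PBS-57. WT CD44hi and KO CD44hi are CD44-high CD4+ T cells, which are mostly antigen-experienced. KO mice were Ezh2fl/fl CD4-Cre, in which Cre under Cd4 regulatory elements acts on floxed Ezh2 in developing T cells and not in other cell types that a sort may carry along. Ezh2 encodes the enzyme of Polycomb repressive complex 2, which methylates histone H3 at lysine 27. The labels give no age, sex or number of animals per library, and do not say whether WT mice carried Cre or floxed alleles.

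Ligands of the TGF-beta superfamily bind a type II receptor kinase, which phosphorylates a type I receptor kinase, which in turn phosphorylates a receptor SMAD. TGF-beta acts through Tgfbr2 and Tgfbr1 on Smad2 and Smad3, and BMPs act through Bmpr2 and Bmpr1a (ALK3) on Smad1, Smad5 and Smad9. Smad4 joins both branches, and Smad7 is an inhibitory SMAD induced by the pathway itself. Endoglin and Tgfbr3 (betaglycan) are coreceptors that present ligands, and endoglin is best known on endothelial cells, where it serves BMP9, BMP10 and TGF-beta. In T cells TGF-beta signalling is known for restraining activation and for guiding regulatory T cell and iNKT cell development.

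Values are FPKM, sequenced fragments scaled to transcript length and to library depth, as deposited. Depth was estimated from the smallest steps between FPKM values, and relative to WT iNKT it was 1.08 for KO iNKT, while the CD44hi libraries were deeper (3.69 for WT and 4.90 for KO). Every group is a single library, so none of the differences could be set against replicates, and no test was run. Where 4 values follow each other, their order is WT iNKT, then KO iNKT, then WT CD44hi, then KO CD44hi. Intervals in parentheses are 95% exact (Clopper-Pearson) intervals of an FPKM ratio from the estimated fragments and cover counting error alone. A gene was measured in a comparison at 1 FPKM or more in either library, and was called higher or lower at 2-fold on the log2(FPKM + 1) scale, which understates changes of low genes. Ezh2 itself stood at 15.3, 16.8, 28.9 and 18.5 FPKM. Exons outside the floxed part still count towards the gene's value, which therefore gives no check of the genotype labels. All 11 T cell markers listed were above 1 FPKM in all 4 libraries. Zbtb16, which encodes the iNKT factor PLZF, stood at 28.2, 63.1, 4.30 and 41.4 FPKM. The labels do not say whether cells binding the tetramer were kept out of the CD44hi sort, so the part of iNKT cells in the KO CD44hi values was not tested. The Y-linked gene Ddx3y stood at 11.5 FPKM in WT CD44hi, at 0.00445 in KO CD44hi and was listed at 0 for iNKT cells of both genotypes, so WT CD44hi held RNA of male mice that KO CD44hi all but lacked. The female transcript Xist stood at 55.3, 76.8, 46.8 and 80.0 FPKM, so WT CD44hi held RNA of both sexes. In the CD44hi pair a difference in sex cannot be told apart from genotype.

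The promoter windows of the BMP pathway's coreceptor and type I receptor genes whose transcripts were higher together in both KO libraries are shown here because they differ widely in CG dinucleotide content. Each runs from 250 bases before to 50 bases after the annotated start, on the strand of the gene, 5′ to 3′, from RefSeq with build GRCm38.p6, and capitals mark CG dinucleotides. Eng lies on the plus strand at chr2:32646345-32646644 and Bmpr1a on the minus strand at chr14:34502497-34502796.
Eng: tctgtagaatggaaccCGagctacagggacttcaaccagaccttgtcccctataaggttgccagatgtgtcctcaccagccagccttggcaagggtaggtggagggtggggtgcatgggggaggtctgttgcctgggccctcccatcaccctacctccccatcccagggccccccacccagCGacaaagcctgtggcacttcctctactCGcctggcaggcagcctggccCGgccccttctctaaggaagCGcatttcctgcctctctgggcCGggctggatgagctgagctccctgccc
Bmpr1a: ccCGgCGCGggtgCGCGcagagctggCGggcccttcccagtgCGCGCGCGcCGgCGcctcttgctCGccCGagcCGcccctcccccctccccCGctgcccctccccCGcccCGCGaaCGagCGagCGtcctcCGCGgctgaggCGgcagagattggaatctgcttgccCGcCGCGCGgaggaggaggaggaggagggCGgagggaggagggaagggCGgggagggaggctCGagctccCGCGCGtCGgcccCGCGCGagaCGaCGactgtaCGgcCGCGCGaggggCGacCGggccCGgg
The Eng window held 6 CG dinucleotides, close to the median of 7 over all 32851 windows of this length in the table. The Bmpr1a window held 48, more than 98.8% of all windows.

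Windows were matched for 6 of the 10 genes. Windows on chromosome 18, where Smad2, Smad4 and Smad7 lie, were left out, and Tgfbr3 had none matched. The Bmpr2 window held 23 CG dinucleotides, the Smad3 window 25 and the Tgfbr2 window 15, and the first of the Tgfbr1 windows held 34. The genes higher in KO thus included both a window near the median (Eng) and one among the richest (Bmpr1a). Short motifs were searched on both strands. The GC box GGGCGG, bound by Sp factors, occurred 4 times in the Bmpr1a window and 0 times in that of Eng, against 35.7% of all windows with at least 1 match. The Bmpr2 window held 1 GC box, and the Smad3 and first Tgfbr1 windows 2 each. The GC-rich SMAD motif GGCGCC occurred once in the Bmpr1a window, starting at base -198 from the annotated start, once each in the Bmpr2 and first Tgfbr1 windows, and in 11.9% of all windows. The ETS core GGAAGT occurred once in the Eng window, at base -53, once in the second Tgfbr1 window, and in 23.8% of all windows. The palindromic SMAD element GTCTAGAC was in none of the windows matched and in 0.213% of all windows. Since Smad2, Smad4 and Smad7 were left out, this says nothing of their promoters. A match of letters is a description and not a bound site.

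Endoglin had the largest KO to WT difference of the 10 genes in both cell types. Eng (GRCm38 chromosome 2, 32646595 to 32682669, plus strand) stood at 2.58 FPKM in WT and 71.9 in KO iNKT cells, and at 0.553 in WT and 38.9 in KO CD44hi cells. Both KO libraries lay far above both WT libraries, and each neighbour in the order KO iNKT, KO CD44hi, WT iNKT, WT CD44hi differed beyond counting error. KO exceeded WT by a ratio of 27.9 in iNKT (20.6 to 38.7) and 70.3 in CD44hi (50.2 to 102). The WT values rested on an estimated 43.0 fragments in iNKT and 33.99 in CD44hi, against 1293 and 3175 in KO. In bulk samples a larger share of cells with the transcript and more transcript per cell cannot be told apart. The annotated exons of Eng share 61 bases with those of Fpgs on the other strand, and the TruSeq v2 kit does not mark strand.

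**Figure D1:**
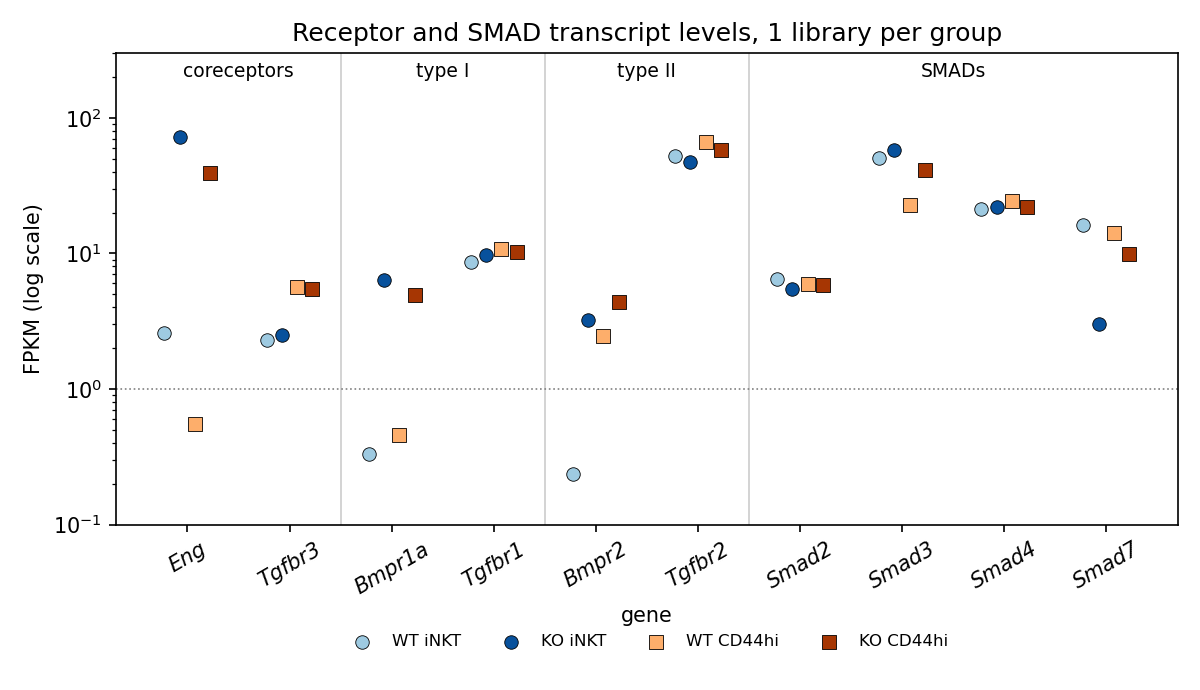
FPKM of the 10 genes (log axis) in each of the 4 libraries, 1 point per library, grouped as coreceptors, type I receptors, type II receptors and SMADs; the dotted line is 1 FPKM. Eng and Bmpr1a are high in both KO libraries, Bmpr2 is low in WT iNKT alone and Smad7 is low in KO iNKT, while Tgfbr1, Tgfbr2, Smad2 and Smad4 keep close levels.

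Markers of endothelial cells, the best known source of endoglin, were under 1 FPKM in both iNKT libraries. Cdh5, Kdr, Flt1, Tek, Tie1, Emcn and Vwf were listed at 0 in both iNKT libraries, and 15 of 19 endothelial and stromal markers were listed at 0 in each. The list summed to 0.535, 3.88, 7.18 and 11.1 FPKM. In the iNKT pair Egfl7 (0.202 to 0.933 FPKM), Plvap, Esam and the stromal marker Col1a1 (0.129 to 2.43 FPKM) were higher in KO, and Stab2 was lower. In the CD44hi pair Cdh5 stood at 0.638 FPKM in WT and 2.26 in KO, and Kdr at 0.530 and 2.09. Cdh5 and Kdr were thus higher in KO CD44hi, as Eng was. Other markers of the list went the other way in this pair: Pdpn (0.537 to 0.278 FPKM), Ccl19, Tek, Tie1 and Col1a2 were lower in KO. Esam was at close levels (2.48 and 2.66 FPKM). The part of endothelial and stromal cells in the Eng values of either pair was not tested.

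Other cell types known to carry endoglin include macrophages and red cell precursors. The 16 macrophage and monocyte markers found summed to 25.9, 14.2, 293 and 325 FPKM. These sums were lower in KO iNKT than in WT iNKT and close in the CD44hi pair. The 12 red cell markers found summed to 31.0, 40.1, 169 and 766 FPKM. Among them, Klf1, a transcription factor of red cell precursors, stood at 1.52 FPKM in KO CD44hi and was listed at 0 for both iNKT libraries. The 12 plasmacytoid dendritic cell markers summed to 654 FPKM in KO CD44hi against 171 in WT, and Siglech, which defines that cell type, was among the markers listed at 0 for iNKT cells and stood at 75.7 FPKM in KO CD44hi against 11.1 in WT. Conventional dendritic cell markers (10 found) summed to 1179 and 1845 FPKM, and B cell markers (12 found) to 70.8 and 128, in WT and KO CD44hi. Markers of NK cells and ILC1 (12 found) summed to 551, 315, 208 and 495 FPKM, and those of plasma cells (7 found) to 58.7, 52.6, 105 and 231. The sums of red cell, dendritic cell, B cell, plasma cell and NK cell markers were therefore higher in KO CD44hi. The NK cell sum was lower in KO iNKT. Within the NK cell, plasma cell and B cell lists, single markers went both ways. From WT to KO CD44hi, Tyrobp went from 121 to 305 FPKM and Gzma from 9.97 to 5.92. Of the plasma cell markers, Igj went from 40.3 to 154 and Prdm1 from 6.27 to 2.10. Of the B cell markers, Cd79a went from 15.3 to 30.1 and Cd22 from 13.8 to 10.1. Spib (7.77 to 32.5) is in both the B cell and the plasmacytoid dendritic cell list, so these sums overlap. Most of the conventional dendritic cell sums came from H2-Ab1 (605 to 934) and H2-Aa (493 to 770). From WT to KO iNKT, Klrd1 went from 182 to 56.5 FPKM and Gzma from 1.72 to 89.0. The part of these cell types in the values was not tested.

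Betaglycan, the other coreceptor of the group, differed between the cell types, and its genotype ratios were near 1. Tgfbr3 stood at 2.28 FPKM in WT and 2.51 in KO iNKT cells, against 5.62 in WT and 5.47 in KO CD44hi cells. Both CD44hi libraries were above both iNKT libraries, by 2.46-fold in WT (1.91 to 3.21) and 2.18-fold in KO (1.73 to 2.77), and depth differed in the same direction. Its ratio of KO to WT was 1.0997 in iNKT (0.787 to 1.54) and 0.973 in CD44hi (0.875 to 1.08), so a genotype difference was not detectable at this depth.

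The type I receptor of the BMP branch was higher in both KO libraries, and that of the TGF-beta branch was at like levels in all 4. Bmpr1a (GRCm38 chromosome 14, 34410734 to 34503341, minus strand) stood at 0.330 FPKM in WT and 6.38 in KO iNKT cells, and at 0.458 in WT and 4.93 in KO CD44hi cells. Its KO to WT ratio was 19.3 in iNKT (10.2 to 41.6) and 10.8 in CD44hi (8.06 to 14.7). The WT iNKT value rested on an estimated 9.63 fragments, which is why the first interval is wide, and the WT libraries did not differ from each other beyond counting error. Annotated Bmpr1a exons share 290 bases with the predicted gene Gm17110 on the other strand. Tgfbr1, in contrast, was at 8.68, 9.71, 10.7 and 10.3 FPKM over the 4 libraries. No neighbours in the order of these 4 Tgfbr1 levels differed beyond counting error. The ends of the order did, with a ratio of WT iNKT to WT CD44hi of 0.809 (0.659 to 0.986). The Tgfbr1 ratio of KO to WT was 1.12 in iNKT (0.873 to 1.43) and 0.958 in CD44hi (0.856 to 1.07). In WT libraries Tgfbr1 thus stood well above Bmpr1a per transcript length, and in KO libraries the gap was smaller.

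Of the type II receptors, that of the BMP branch passed 2-fold between genotypes in the iNKT pair alone. That of the TGF-beta branch was within 2-fold in both pairs. Bmpr2 (GRCm38 chromosome 1, 59763400 to 59879014, plus strand) stood at 0.234 FPKM in WT and 3.23 in KO iNKT cells, and at 2.47 in WT and 4.37 in KO CD44hi cells. WT iNKT was the library that stood apart, at a level 10.5-fold below WT CD44hi (6.32 to 19.0). The KO to WT ratio of Bmpr2 was 13.8 in iNKT (8.14 to 25.1), with an estimated 14.8 fragments in WT, and 1.77 in CD44hi (1.60 to 1.95), which did not reach 2-fold. The difference of log2 differences between the pairs, iNKT minus CD44hi, was 1.15 for Bmpr2 (2.52 with a pseudocount of 0.1) and was not tested. Tgfbr2, the receptor that binds TGF-beta first, was the most abundant receptor in WT iNKT and both CD44hi libraries and came second to Eng in KO iNKT, at 52.3, 47.4, 66.5 and 58.0 FPKM. Tgfbr2 was slightly lower in KO, with a ratio of 0.906 in iNKT (0.842 to 0.974) and 0.871 in CD44hi (0.844 to 0.8999).

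**Figure D2:**
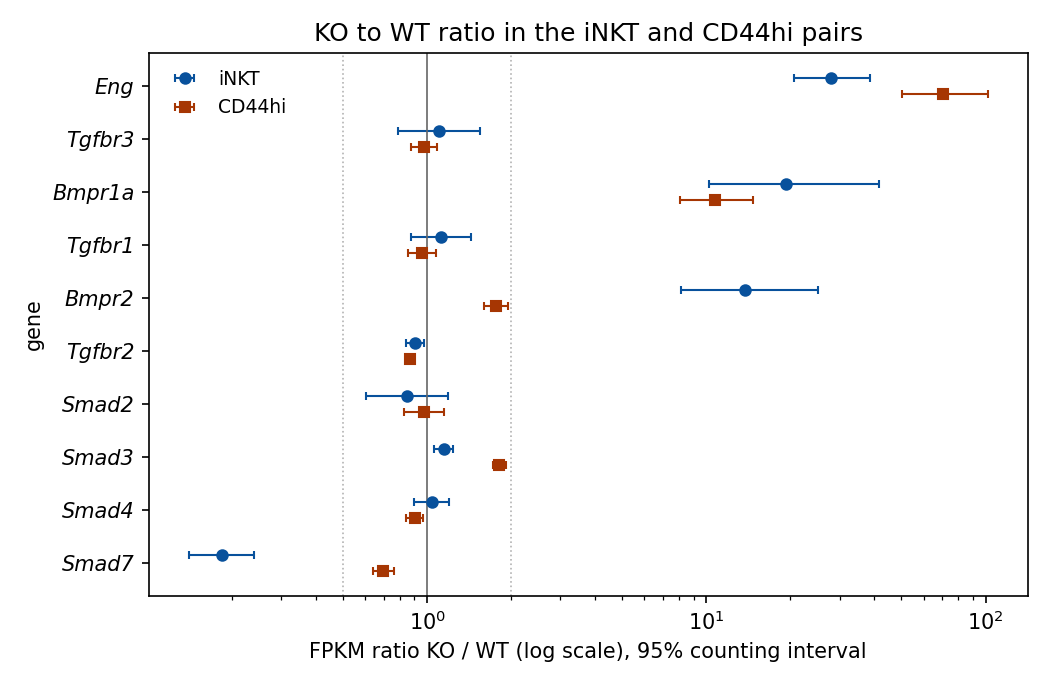
KO to WT ratio of FPKM for each of the 10 genes (log axis), circles for the iNKT pair and squares for the CD44hi pair, with bars for the 95% counting interval; dotted lines mark a ratio of 2 in either direction. Eng and Bmpr1a lie far to the right in both pairs, Bmpr2 in the iNKT pair, and Smad7 lies to the left, at 0.185 in iNKT and 0.696 in CD44hi.

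Among the SMADs, Smad2 and Smad4 were at close levels in all libraries. Smad2, a receptor SMAD of the TGF-beta branch, stood at 6.48, 5.49, 5.94 and 5.80 FPKM, and no neighbours in the order of these levels differed beyond counting error. Smad4, the common partner of both branches, stood at 21.3, 22.1, 24.5 and 22.1 FPKM, with WT CD44hi alone above its neighbour beyond counting error. Its KO to WT ratio was 1.04 in iNKT (0.896 to 1.20) and 0.902 in CD44hi (0.842 to 0.967).

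Smad3 was lowest in WT CD44hi. Smad3 (GRCm38 chromosome 9, 63646767 to 63757994, minus strand), which carries TGF-beta signals, stood at 50.3 FPKM in WT and 57.6 in KO iNKT cells, and at 22.6 in WT and 41.0 in KO CD44hi cells. Its KO to WT ratio was 1.81 in CD44hi (1.72 to 1.91) and 1.14 in iNKT (1.06 to 1.23), neither reaching 2-fold, and WT iNKT was 2.23-fold above WT CD44hi (2.07 to 2.39). In FPKM, which is per transcript length, Smad3 was above Smad2 in each of the 4 libraries.

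Smad7, the inhibitory SMAD, was lower in KO and passed 2-fold in the iNKT pair. It stood at 16.3 FPKM in WT and 3.001 in KO iNKT cells, and at 14.2 in WT and 9.90 in KO CD44hi cells. KO iNKT was 5.42-fold below WT iNKT (4.16 to 7.14) and 3.30-fold below KO CD44hi (2.58 to 4.28), with an estimated 67.8 fragments in KO iNKT. In CD44hi Smad7 was 1.44-fold lower in KO (1.32 to 1.57), which did not reach 2-fold, and the difference of log2 differences between the pairs was -1.63. In KO iNKT the inhibitory SMAD was thus low in the same library in which endoglin and both BMP receptors were above their WT iNKT levels. Bmpr2 was higher still in KO CD44hi, at 4.37 FPKM against 3.23 in KO iNKT.

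In counts, 3 of the 10 genes were higher in KO iNKT (Eng, Bmpr1a and Bmpr2) and 1 was lower (Smad7), against 6.08% of 10816 measured genes higher and 3.33% lower. Bmpr1a and Bmpr2 passed the minimum through the KO library alone. In CD44hi 2 of the 10 were higher (Eng and Bmpr1a) and 0 lower, against 2.44% of 11352 measured genes higher and 1.14% lower, and both passed the minimum through KO alone. With a minimum of 5 FPKM in place of 1, Bmpr2 in iNKT and Bmpr1a in CD44hi were no longer measured. Since the genes were chosen from these contrasts, nothing is read from these counts. The median log2 difference of the 10 genes was 0.12 in iNKT, beside 0.05 over all measured genes, and -0.03 in CD44hi, beside 0.01. By the counting interval alone 4 genes were above a ratio of 1 and 2 below it in iNKT (background 29.2% and 19.7% of genes with a known length), and 4 and 3 in CD44hi (28.9% and 26.4%). An interval away from 1 was thus common among all genes in these libraries.

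Between cell types in WT, Eng and Smad3 were higher in iNKT and Bmpr2 and Tgfbr3 lower, of 9 genes measured (all genes: 3.64% higher, 10.9% lower). WT iNKT was 4.66-fold above WT CD44hi for Eng (2.91 to 7.54). In KO, Smad7 alone passed 2-fold and was lower in iNKT (all genes: 3.02% higher, 9.06% lower). Eng was 1.85-fold higher in KO iNKT than in KO CD44hi (1.73 to 1.97) and Bmpr1a 1.295-fold (1.102 to 1.52), both short of 2-fold. These comparisons share their libraries with the genotype comparisons, and cell type cannot be told apart from any batch that the iNKT and CD44hi files may differ by. In WT, cell type cannot be told apart from sex either. Ddx3y was listed at 0 in WT iNKT and stood at 11.5 FPKM in WT CD44hi.

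The rest of the pathway was read from lists ordered by role, with 107 genes found and 45 measured in the iNKT pair and 54 in the CD44hi pair. In KO iNKT 6 were higher and 1 lower (all genes: 6.08% and 3.33%), with a median log2 difference of 0.03. In KO CD44hi 2 were higher and 6 lower (all genes: 2.44% and 1.14%), with a median of -0.10. Among the other type I receptors Acvr1b (ALK4, for activins) stood at 12.7, 11.2, 8.71 and 12.9 FPKM. The usual partner of endoglin on endothelium, the type I receptor Acvrl1 (ALK1), stood at 0.622, 0.262, 2.27 and 1.89 FPKM, and so was under 1 FPKM in the library with the most Eng. The other type II receptor measured, Acvr2a, was at 1.39, 1.34, 2.13 and 1.77 FPKM. The BMP-branch SMADs Smad1 (4.77, 6.43, 5.28 and 5.94 FPKM) and Smad5 (7.80, 7.54, 7.35 and 7.02 FPKM) did not pass 2-fold in either pair.

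Of 8 coreceptors and decoy receptors outside the group, 2 were measured in the iNKT pair and 3 in the CD44hi pair, and Tdgf1 and Nrp1 passed 2-fold in both. Tdgf1 (Cripto), a coreceptor for Nodal and other ligands of the family, stood at 1.01, 5.51, 0.548 and 2.4998 FPKM. Tdgf1 had a KO to WT ratio of 5.45 in iNKT (2.72 to 12.2) and of 4.56 in CD44hi (2.795 to 7.83), so it was higher in both KO libraries, as Eng and Bmpr1a were. Nrp1, a semaphorin receptor that also binds TGF-beta, was higher in KO iNKT (8.84 to 37.6 FPKM) and lower in KO CD44hi (22.01 to 7.41 FPKM). Nrp1 is also known as a surface protein of thymus-derived regulatory T cells, and Foxp3, their defining factor, was at 53.8 FPKM in WT CD44hi and 13.4 in KO CD44hi.

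Of the ligands, 1 of 5 measured was higher in KO iNKT and 1 of 6 in KO CD44hi, and 0 were lower in either. Tgfb3 stood at 1.22, 4.79, 4.55 and 6.31 FPKM, with the iNKT pair past 2-fold. Lefty1, a secreted antagonist of Nodal, stood at 0.806 FPKM in WT CD44hi and 3.30 in KO CD44hi and was listed at 0 for iNKT cells of both genotypes. Tgfb1, the main TGF-beta of lymphocytes, was the most abundant ligand, at 56.4, 79.8, 89.0 and 91.0 FPKM. Bmp7, a ligand of Bmpr2 and Bmpr1a, was at 14.7, 24.8, 17.7 and 17.2 FPKM, and Gdf11 at 8.31, 3.79, 7.84 and 7.33, neither past 2-fold on the log2(FPKM + 1) scale.

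Among genes for latency, activation and extracellular antagonism, 2 of 5 measured were higher and 0 lower in KO iNKT: Thbs1, thrombospondin 1, which can activate latent TGF-beta, went from 0.0692 to 6.399 FPKM (ratio 92.5, 25.2 to 781, with an estimated 1.98 fragments in WT), and Twsg1, a BMP-binding protein, from 6.50 to 23.2. In KO CD44hi 0 of 9 were higher and 3 lower, and these 3 were not measured in the iNKT pair. Lrrc32 (GARP), which holds latent TGF-beta on regulatory T cells, went from 11.7 to 2.02 FPKM, Itgb8, the integrin chain that releases it, from 3.503 to 0.506, and Sostdc1, a BMP antagonist known from follicular helper T cells, from 20.5 to 4.37. Twsg1 stood at 15.6 FPKM in WT CD44hi and 9.44 in KO, lower in KO by the counting interval and within 2-fold. The lower genes stood beside the lower Foxp3, and the part of a smaller share of regulatory T cells in these values was not tested.

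The intracellular partners and inhibitors of the pathway were within 2-fold for all 22 genes measured in the iNKT pair and all 23 in the CD44hi pair, with medians of -0.01 and -0.10. They include Fkbp1a (62.6, 103, 85.6 and 77.4 FPKM), which keeps type I receptors inactive, and Ski (27.3, 23.0, 41.2 and 28.3 FPKM), a corepressor of SMADs. Of the textbook targets, 7 of 9 measured in iNKT and 9 of 11 in CD44hi were within 2-fold. Id3, a BMP and TGF-beta target that opposes E proteins, stood at 11.4, 175, 38.7 and 47.9 FPKM. Its KO to WT ratio was 15.4 in iNKT (12.1 to 19.8), while Id2 was lower in KO iNKT (1172 to 441 FPKM) and was at 327 and 475 in WT and KO CD44hi. Id1, a common readout of BMP signalling, stood at 0.821, 1.52, 0.594 and 0.559 FPKM, and was within 2-fold in the iNKT pair and not measured in the CD44hi pair. In KO CD44hi the lower targets were Foxp3 and Itgae (6.25 to 0.949 FPKM), an integrin induced by TGF-beta, and 0 targets were higher.

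**Figure D3:**
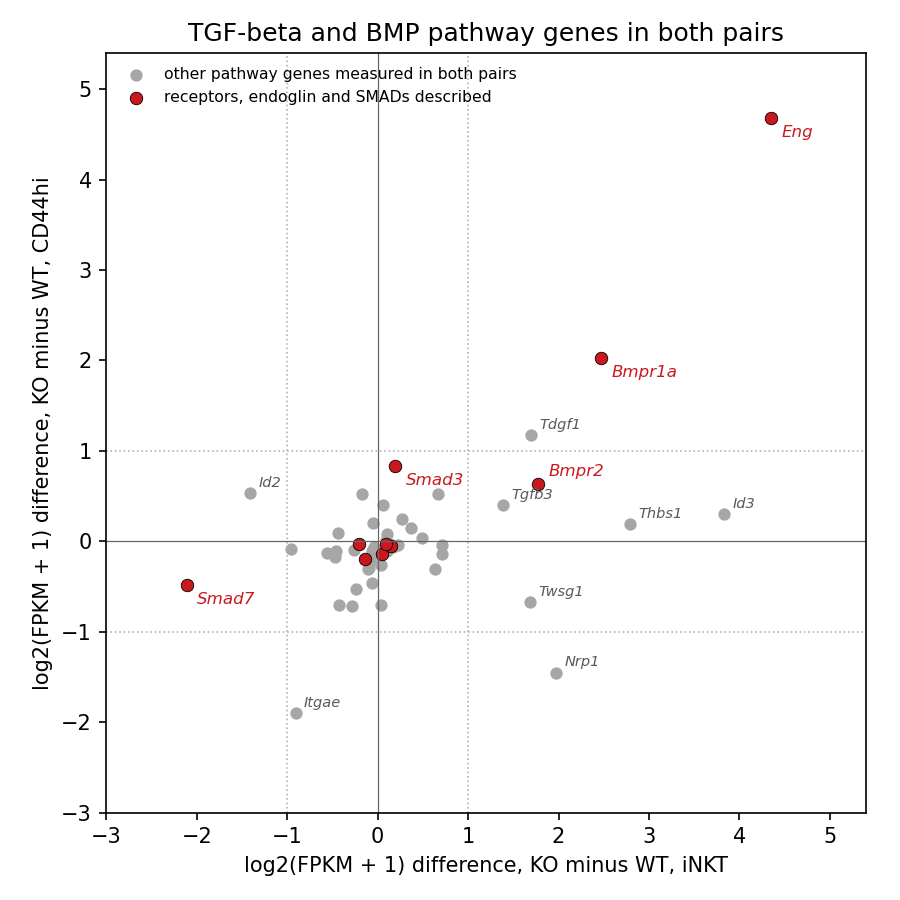
KO minus WT difference of log2(FPKM + 1) in the iNKT pair (x axis) and the CD44hi pair (y axis); red points are the 10 genes described and grey points the 43 other pathway genes measured in both pairs, with dotted lines at 2-fold. Eng and Bmpr1a stand at the upper right with Tdgf1, while Nrp1 and Twsg1 are positive in iNKT and negative in CD44hi.

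The genes with patterns nearest to Eng and Bmpr1a over the 4 libraries were found by the Euclidean distance between log2(FPKM + 1) values centred on each gene's mean, among 8286 named genes that reached 5 FPKM in any library. With 4 points this is a description. For Eng they were Epha3, an ephrin receptor (0.0513, 22.4, 0.362 and 7.39 FPKM), Arhgap24, Atp6v0d2, Akap6 and Fzd6, at distances of 1.54 to 2.24. For Bmpr1a they were Cxxc5 (4.59, 28.3, 5.18 and 19.8 FPKM), Rnf32, Fzd6, Cenpv and Akap6, at distances of 0.215 to 0.606. Akap6, an anchor of protein kinase A, and Fzd6, a Wnt receptor, were in both sets. Bmpr1a ranked 11 among the patterns nearest to Eng, and Smad3 ranked 269. In the reverse ranking from Bmpr1a, Eng ranked only 6426 at the same distance of 2.49, so a rank in 1 direction does not make the patterns alike. Bmpr2 stayed under 5 FPKM in all 4 libraries and was not ranked.

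**Figure D4:**
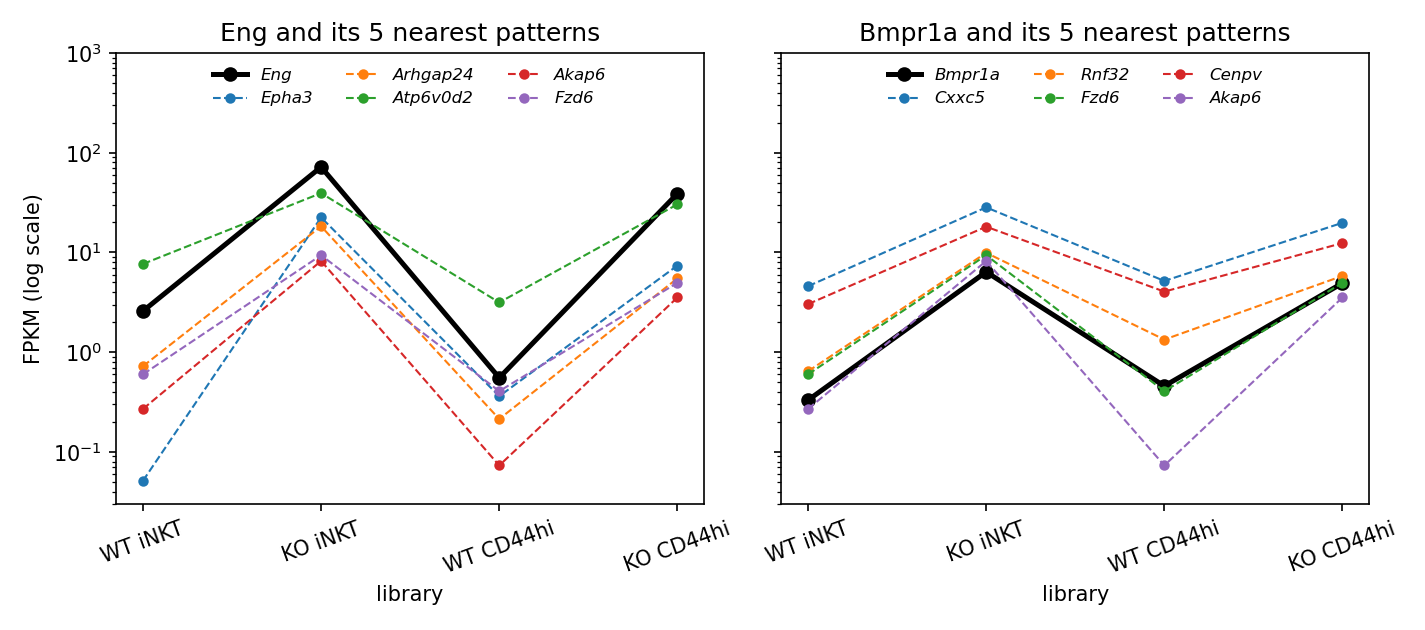
FPKM (log axis) in the 4 libraries for Eng (left, black) and Bmpr1a (right, black) with the 5 genes of nearest pattern for each as dashed lines; lines join libraries to show the shape and stand for no time course. Each of the genes drawn is higher in KO than in WT in both cell types, since the genes were chosen for nearness to Eng or Bmpr1a in these same values.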

How the data were processed

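RNA was measured in 4 libraries, 1 per group. The authors deposited an FPKM value per gene symbol for each, per the file headers. Cufflinks 2.0.2, TopHat 1.3.2, Bowtie2 2.0.0 and build mm10 appear in the submitters' processing notes, with no roles. The annotation, filters and strand setting are not given in the sources used here. Rows sharing a symbol (240 symbols) were summed, and 26 symbols turned into dates or numbers and 785 small RNA symbols were left out. FPKM of 1 fragment came from the mode of low FPKM times length over genes of at least 3000 bases with 1 matched transcript (GENCODE M21, GRCm38), and was tested on simulated data. Computation used Python 3.11.15, numpy 2.4.6, pandas 2.3.3 and scipy 1.17.1. A pseudocount of 1 was used. The genes and lists were chosen with earlier results of these data known. Named genes are the 10 members, pathway genes past 2-fold in either genotype comparison with some of the most abundant others of each list, and the 5 nearest patterns to Eng and to Bmpr1a among genes at 5 FPKM or more; Id1 was named after its values were seen. Alternatives were the pseudocount, the minimum, the scaling, shared symbols and the fold of a call.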

Additional observations from a re-analysis of the deposited data

Results flagged for a closer look

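3 pathway genes differed between genotypes in opposite directions in the 2 cell types, with both counting intervals away from a ratio of 1 and at least 1 pair past 2-fold; none of these differences was tested, since each group is 1 library. The KO minus WT difference of log2(FPKM + 1) in iNKT minus that in CD44hi was 3.42 for Nrp1, 2.36 for Twsg1 and -1.94 for Id2. None of the 10 receptor and SMAD genes met this condition.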

How the results depend on the processing

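Directions and side of the 2-fold line of the 10 genes were compared under 7 alternatives, and 0 called values changed sign. The pseudocount, the minimum, the fold and shared symbols cannot change a sign. The largest log2 shift by a rescaling was -0.06, too small to turn a 2-fold difference, so nothing is read from the signs. With a pseudocount of 0.1 the iNKT pair kept counts of 3 higher and 1 lower and the CD44hi pair 2 and 0, while the log2 difference rose to 4.75 and 5.90 for Eng and 3.91 and 3.17 for Bmpr1a. In the comparison of KO iNKT with KO CD44hi, 2 of the 10 were then lower. Over all genes this pseudocount gave 981 higher and 554 lower of 10816 measured in KO iNKT (658 and 360 with a pseudocount of 1). In KO CD44hi it gave 492 higher and 223 lower of 11352 (277 and 129). For KO iNKT against KO CD44hi it gave 584 higher and 1315 lower of 11469 (346 and 1039). In the rest of the pathway 5 genes were lower in iNKT (1) and 4 higher in CD44hi (2). A minimum of 5 FPKM left 8 of the 10 measured in each genotype comparison and removed Bmpr2 in iNKT and Bmpr1a in CD44hi, so that 2 and 1 were higher; 1 was higher and 1 lower between cell types in WT. Over all genes it gave 391 higher and 258 lower in KO iNKT (658 and 360), and 165 and 91 in KO CD44hi (277 and 129). WT iNKT against WT CD44hi gave 318 and 694 (408 and 1224), and KO iNKT against KO CD44hi 245 and 576 (346 and 1039). In CD44hi 0 other pathway genes were higher. The number of genes measured at this minimum was not recorded, so no shares are given. A call at 1.5-fold made 4 of the 10 higher in CD44hi, adding Bmpr2 and Smad3, and 1 higher and 2 lower in KO iNKT against KO CD44hi. All-gene counts higher and lower were then 1545 and 936 of 10816 measured in iNKT, and 730 and 394 of 11352 in CD44hi. Between cell types they were 1153 and 2136 of 11216 in WT, and 1199 and 1841 of 11469 in KO. Other pathway genes numbered 10 and 4 in iNKT and 4 and 10 in CD44hi. A further alternative, chosen after seeing the data, kept genes that reached 5 FPKM in either iNKT library. Eng and Bmpr1a were the 2 higher in CD44hi, beside 120 higher and 44 lower of all genes and 1 and 1 of the pathway. Both passed this filter through KO iNKT alone, and the filter does not change their CD44hi values, so nothing is read from it. Other settings, both rescalings included, gave counts within 1.5 times. No paired analysis was possible because each group is 1 library without a replicate number, and leaving out a replicate leaves no group. With a pseudocount of 0.1 the genotype difference in iNKT minus that in CD44hi went from -0.33 to -1.15 for Eng and from 1.15 to 2.52 for Bmpr2. Depth limits the WT iNKT values of Bmpr1a and Bmpr2 and the WT CD44hi value of Eng.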
